A study of Mus musculus with 9 samples.

Results

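The 10 genes described here encode components of extracellular microfibrils and enzymes linked to them. They are the fibrillin genes Fbn1 and Fbn2, the latent TGF-beta binding protein genes Ltbp1, Ltbp2, Ltbp3 and Ltbp4, the microfibril glycoprotein gene Mfap2, and the ADAMTS family genes Adamts10, Adamts17 and Adamtsl4. They were picked by symbol for this role and not by a rule on their measured values, though with earlier results of these data known. They were found by Ensembl identifier among the 35275 genes of a table of read counts. All 10 passed the filter on low counts, as did 15825 genes in all. Bulk RNA sequencing had been done on anterior segments of newborn mice (postnatal day 0), a tissue of cornea, iris, ciliary body and drainage structures, from which the lens had been dissected away. The 6 mutant libraries came from Col4a1+/G1344D mice, which carry in the germline 1 copy of a missense change in a type IV collagen chain, and the 3 wildtype libraries from Col4a1+/+ mice. The labels name neither strain nor sex. Each library pooled 4 eyes of 2 mice, so p-values measure the spread between such pools.

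Fibrillins are large glycoproteins that assemble into microfibrils, which scaffold elastic fibres and, in the eye, form the zonule that holds the lens to the ciliary body. Latent TGF-beta binding proteins attach to microfibrils and to fibronectin, and all of them except the product of Ltbp2 can carry TGF-beta in its inactive form, so that the matrix stores the growth factor until integrins or proteases release it. In humans, mutations in FBN1, LTBP2, ADAMTS10, ADAMTS17 and ADAMTSL4 are known causes of displaced or malformed lenses.

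Promoter sequence from RefSeq (build GRCm38.p6) was matched by symbol for 8 of the 10 genes, all but Adamts10 and Fbn2, in 12 windows of 250 bases ahead of an annotated start. The windows of Ltbp3 and Ltbp4, which passed the test described below, and of Ltbp1 and Mfap2, which did not, are printed 5′ to 3′ on the strand of the gene, without bases that lie in an annotated exon. Capitals mark letters that match a searched motif.
Ltbp3, chr19:5740650-5740899, plus strand: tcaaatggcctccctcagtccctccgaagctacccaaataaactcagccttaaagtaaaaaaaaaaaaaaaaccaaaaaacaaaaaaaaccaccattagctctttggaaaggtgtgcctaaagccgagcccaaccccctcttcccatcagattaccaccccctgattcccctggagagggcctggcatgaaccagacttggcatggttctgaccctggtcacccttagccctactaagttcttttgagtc
Ltbp4, chr7:27337693-27337862, minus strand: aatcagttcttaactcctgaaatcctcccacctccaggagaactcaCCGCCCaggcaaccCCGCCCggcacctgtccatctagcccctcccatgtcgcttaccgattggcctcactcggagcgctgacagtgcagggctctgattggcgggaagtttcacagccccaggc
Ltbp1, chr17:75005279-75005528, plus strand: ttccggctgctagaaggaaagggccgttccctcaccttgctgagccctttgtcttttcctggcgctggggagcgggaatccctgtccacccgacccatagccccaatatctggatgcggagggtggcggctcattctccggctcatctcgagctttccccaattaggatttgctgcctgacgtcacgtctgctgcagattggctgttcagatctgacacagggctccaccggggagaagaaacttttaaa
Mfap2, chr4:141010174-141010417, plus strand: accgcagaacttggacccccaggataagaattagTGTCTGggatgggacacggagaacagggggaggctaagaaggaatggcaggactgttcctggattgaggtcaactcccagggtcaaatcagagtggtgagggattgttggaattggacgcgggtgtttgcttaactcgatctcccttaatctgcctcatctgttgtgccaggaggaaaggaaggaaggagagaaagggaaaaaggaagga
Searched on both strands were CAGACA, a unit of the element bound by SMAD3 and SMAD4, then GTCTAGAC, the palindromic SMAD element, and TGANTCA, the AP-1 site, and also GGGCGG, the GC box bound by SP1, and finally TATAAA, the TATA box. The first of them occurred in the printed window of Mfap2, on the minus strand 216 bases ahead of the start, and in a second window of Ltbp1, while 17.1% of 32851 promoters of the same length held it. The printed Ltbp4 stretch held the GC box on the strand opposite to the gene, read there as CCGCCC, at 204 and 190 bases ahead of the start. The GC box also occurred in the other windows of Ltbp4, with 5 and 7 matches, and in a Mfap2 window that is not printed. It occurred as well in windows of Fbn1, Ltbp2 and Adamtsl4, while 32.7% of all promoters held it. The palindrome, the AP-1 site and the TATA box matched in 0 of the 12 windows, against 0.167%, 6.75% and 12.4% of all promoters. A match in these letters is a description only.

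Levels between genes were compared as CPM (counts scaled to library size with TMM factors) per kb of annotated exon. Mfap2, whose product is the small glycoprotein MAGP-1 that binds fibrillin, stood far above the rest, at 410.2 ± 52.3 CPM per kb in mutant and 458 ± 20.8 in wildtype libraries (SD, n = 6 and n = 3, as for every pair of values here). The next level was that of Ltbp3, at 39.0 ± 1.69 in mutant and 31.6 ± 3.29 CPM per kb in wildtype libraries. In wildtype libraries Ltbp4 (15.8 to 24.4 CPM per kb), Ltbp1 (16.4 to 18.7) and Fbn2 (13.3 to 18.5) followed with ranges that overlapped, and Fbn1 came after them. The pair Adamts10 and Adamtsl4 overlapped as well, at 4.01 to 5.21 and 3.91 to 5.63 CPM per kb in wildtype libraries, as did Ltbp2 and Adamts17 at the low end. In mutant libraries the order of the means differed in that Fbn2, at 27.8 ± 5.18 CPM per kb in mutant against 16.7 ± 2.89 in wildtype libraries, ranked above Ltbp4 and Ltbp1, and Adamtsl4 ranked above Adamts10. With the length of the annotated principal transcript in place of all exons, Ltbp1 ranked ahead of Ltbp4 and Adamts10 ahead of Fbn1 in wildtype libraries. On that length Ltbp1, at 45.5 ± 4.84 CPM per kb in mutant libraries, stood above Fbn2, at 33.3 ± 6.20, and Fbn2 stayed above Ltbp4. Adamts10 then stood above Adamtsl4 in both groups, at 9.12 ± 1.73 against 5.73 ± 0.975 in mutant and 9.77 ± 1.38 against 4.87 ± 0.873 in wildtype libraries. The order of these genes thus depends on the length used.

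**Figure D1:**
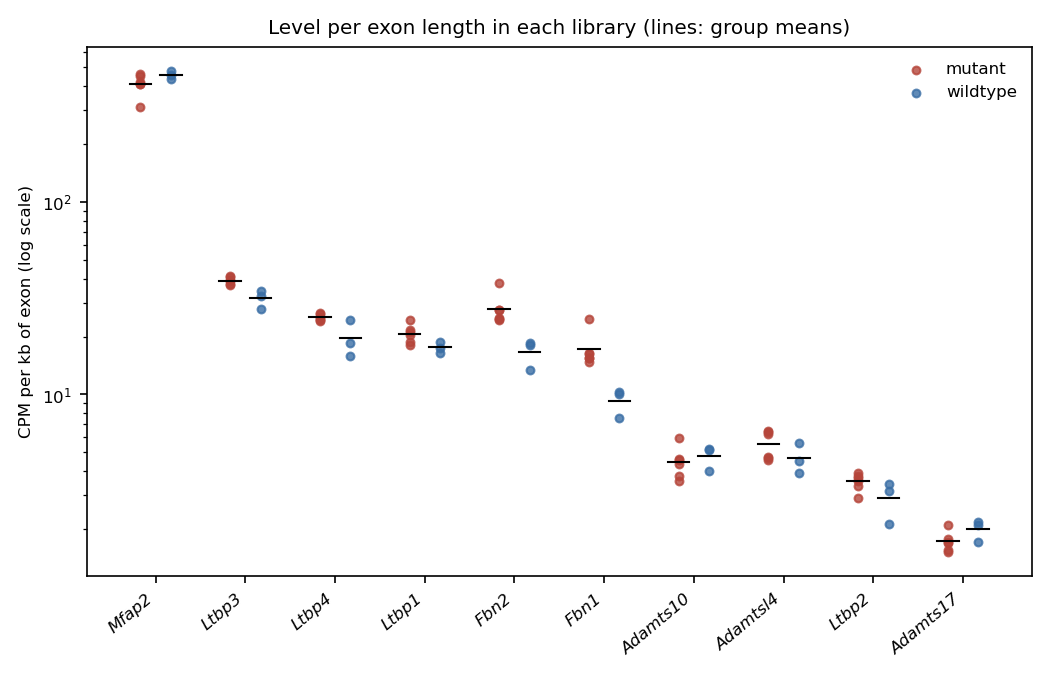
Level of each gene as CPM per kb of exon on a log axis, with 1 point per library, mutant (red) left of wildtype (blue), and a line at each group mean. Mfap2 lies above 300 CPM per kb in every library, and the mutant points of Fbn1 and Fbn2 all lie above their wildtype points.

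Both fibrillin genes were higher in the mutant, by 1.85-fold for Fbn1 and 1.67-fold for Fbn2, and Ltbp3 and Ltbp4 were higher by smaller folds of 1.24 and 1.28. The other 6 genes did not pass the test. Thus 4 of the 10 were called higher and 0 lower (edgeR quasi-likelihood test, Benjamini-Hochberg adjusted p under 0.05), where 9.7% of all tested genes were called higher and 9.47% lower. At an unadjusted p under 0.05, 5 were higher and 0 lower, and the counts called lower were 0 by DESeq2 and 1, Adamts17, by limma-voom. The median log2 fold change was 0.26 over the 10 genes and -0.0019 over all tested genes. The CPM ranges of the groups did not overlap for 3 of the 10 genes, with the mutant above in all 3, against 22% of all genes, 10.8% with the mutant above and 11.2% with it below. When wildtype 1 was left out, 2 of the 10 genes were called higher, Fbn1 and Fbn2, while 303 of all tested genes were, against 1535 with all 9 libraries.

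Fbn1 (ENSMUSG00000027204, chromosome 2, 125300594 to 125507993 of GRCm38, minus strand) encodes fibrillin-1, the main fibrillin of adult microfibrils. Its level ran from 178 over a median of 193 to 299.7 CPM in mutant libraries, and was 91.3, 122 and 125 CPM in wildtype libraries. Every mutant library lay above every wildtype library, with the highest value in mutant 4 and the lowest in wildtype 1. The means were 208 ± 45.4 CPM in mutant and 113 ± 18.6 CPM in wildtype libraries, a log2 fold change of 0.88 (SE 0.154, 95% interval 0.55 to 1.21, edgeR adjusted p = 0.00274).

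Fbn2 (ENSMUSG00000024598, chromosome 18, 58008623 to 58210487 of GRCm38, minus strand) encodes fibrillin-2, the fibrillin best known from embryonic and early postnatal microfibrils. It ran from 322 over a median of 345 to 502 CPM in mutant libraries, against 176, 239.9 and 245 CPM in wildtype libraries. The groups were again apart, with the same libraries, mutant 4 and wildtype 1, at the ends. The means were 367 ± 68.4 CPM in mutant and 220.3 ± 38.1 CPM in wildtype libraries, a log2 fold change of 0.74 (SE 0.140, 95% interval 0.44 to 1.03, edgeR adjusted p = 0.00372). Both fibrillin genes kept their call when any 1 library was left out: the log2 fold change of Fbn1 then ran from 0.75 to 0.97 and that of Fbn2 from 0.60 to 0.82, with edgeR adjusted p of at most 0.0299 and 0.0420.

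Of the latent TGF-beta binding protein genes, Ltbp3 (ENSMUSG00000024940, chromosome 19, 5740904 to 5758532 of GRCm38, plus strand) changed by less than the fibrillin genes, with less spread in mutant than in wildtype libraries. It ran from 335 over a median of 353 to 373 CPM in mutant libraries, against 253, 312 and 293 CPM in wildtype libraries. The groups did not overlap. The means were 354 ± 15.3 CPM in mutant and 286 ± 29.9 CPM in wildtype libraries, a log2 fold change of 0.31 (SE 0.0804, 95% interval 0.14 to 0.48, edgeR adjusted p = 0.0162). Without wildtype 1 the log2 fold change was 0.23 and the call was lost (edgeR adjusted p = 0.130). Ltbp4 (ENSMUSG00000040488, chromosome 7, 27305136 to 27337692 of GRCm38, minus strand), whose product also serves elastic fibre assembly, ran from 156 over a median of 162 to 170.3 CPM in mutant libraries, against 102, 158 and 119 CPM in wildtype libraries. Here wildtype 2 lay within the mutant range while the other wildtype libraries lay below it. The log2 fold change was 0.36 (SE 0.105, 95% interval 0.14 to 0.58, edgeR adjusted p = 0.0249). It moved to 0.23 without wildtype 1 and 0.32 without wildtype 3, where the call was lost (edgeR adjusted p = 0.187 and 0.110), and to 0.56 without wildtype 2.

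Ltbp1 (chromosome 17, 75005568 to 75392512 of GRCm38), the best studied carrier of latent TGF-beta, and Ltbp2 (chromosome 12, 84783212 to 84876532), which is a microfibril component of the zonule, did not pass the test. Ltbp1 ran from 193 over a median of 223 to 259 CPM in mutant libraries, against 175, 200.2 and 187 CPM in wildtype libraries. The lowest mutant library, mutant 1, lay within the wildtype range, and the log2 fold change was 0.24 (SE 0.0909, 95% interval 0.047 to 0.43, edgeR adjusted p = 0.0755). Without mutant 1 the value was 0.28 and passed (edgeR adjusted p = 0.0362). Ltbp2 ran from 23.8 over a median of 29.6 to 32.1 CPM in mutant libraries, against 17.3, 25.8 and 27.9 CPM in wildtype libraries. Only wildtype 1 lay below all mutant libraries, and the log2 fold change was 0.29 (SE 0.138, 95% interval -0.0031 to 0.58, edgeR adjusted p = 0.151).

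**Figure D2:**
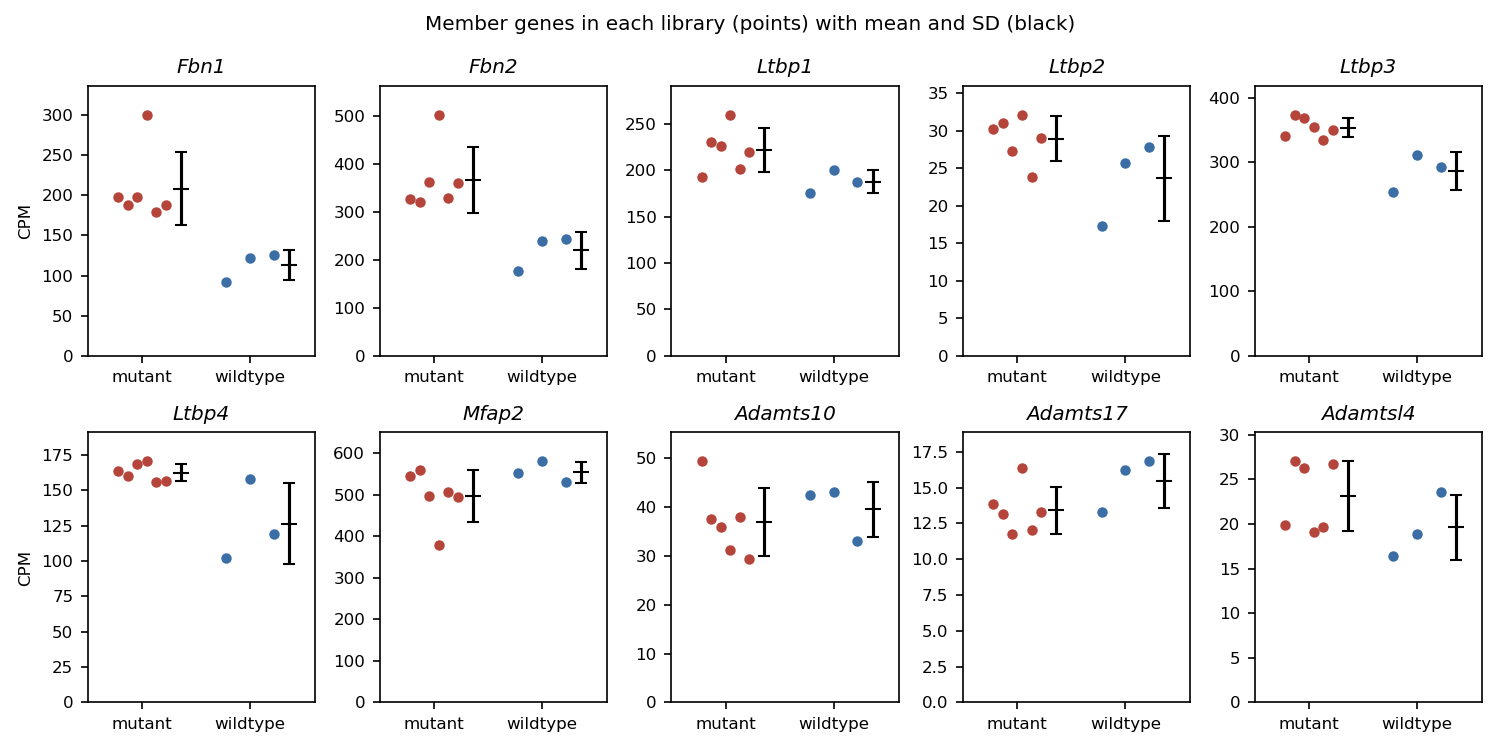
CPM of each of the 10 genes by library, mutant (red, n = 6) left of wildtype (blue, n = 3), with the group mean and SD in black beside the points. Each panel has its own axis from 0. The groups are apart for Fbn1, Fbn2 and Ltbp3 and overlap for the other 7 genes, and mutant 4 is the highest point for Fbn1 and Fbn2 and the lowest for Mfap2.

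Mfap2 and the 3 ADAMTS family genes did not pass the test. Mfap2 (chromosome 4, 141010418 to 141015984 of GRCm38) ran from 379.6 over a median of 501 to 559 CPM in mutant libraries, against 552, 580.2 and 530.0 CPM in wildtype libraries. The groups overlapped through mutants 1 and 2, and the log2 fold change was -0.16 (SE 0.103, 95% interval -0.38 to 0.060, edgeR adjusted p = 0.301). Adamts10 (chromosome 17, 33524204 to 33553782), which encodes a secreted protease-like protein that binds fibrillin-1, had 36.9 ± 6.997 CPM in mutant and 39.5 ± 5.59 CPM in wildtype libraries, a log2 fold change of -0.10 with a 95% interval of -0.40 to 0.20. Adamts17 (chromosome 7, 66839735 to 67153171), a related gene, had 13.4 ± 1.64 CPM in mutant and 15.5 ± 1.88 CPM in wildtype libraries, a log2 fold change of -0.21 with an interval of -0.49 to 0.081. Adamtsl4 (chromosome 3, 95676201 to 95687917) encodes a protein without protease activity that promotes fibrillin-1 deposition. It had 23.1 ± 3.94 CPM in mutant and 19.6 ± 3.66 CPM in wildtype libraries, a log2 fold change of 0.24 with an interval of -0.083 to 0.55. These intervals include no change, and each also leaves room, in one direction, for a change as large as that of Ltbp4.

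Ratios within a library do not depend on how libraries are scaled, and 8 of them were compared by an exact two-sided permutation test, which has 84 arrangements. They were taken on read counts, not divided by exon length. Their size therefore does not compare levels between genes as CPM per kb does, and only the difference between groups is read. The 4 Ltbp genes summed stood at 1.02 to 1.56 times the summed fibrillin genes in mutant libraries, against 2.05, 1.92 and 1.70 times in wildtype libraries. The ratio was 1.40-fold lower in the mutant and the groups were apart (exact permutation p = 0.0119, the smallest this test can give, adjusted p = 0.0317). Mfap2 stood at 0.473 to 1.10 times the summed fibrillin genes in mutant libraries, against 2.06, 1.603 and 1.43 times in wildtype libraries, a ratio 1.93-fold lower in the mutant (exact permutation p = 0.0119, adjusted p = 0.0317). Adamts10 over Fbn1 was 0.104 to 0.249 in mutant libraries and 0.466, 0.353 and 0.265 in wildtype libraries, 1.98-fold lower in the mutant (exact permutation p = 0.0119, adjusted p = 0.0317). Relative to the summed Ltbp genes and to Mfap2, the summed fibrillin genes were higher in every mutant library than in every wildtype library, and so was Fbn1 relative to Adamts10.

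Fbn2 over Fbn1 ran from 1.65 to 1.92 in mutant libraries, against 1.93, 1.97 and 1.96 in wildtype libraries, a log2 difference of -0.14 (exact permutation p = 0.0238, adjusted p = 0.0476). Adamtsl4 over Fbn1 differed by -0.64 on the log2 scale, with an adjusted p above the threshold (exact permutation p = 0.0357, adjusted p = 0.0571). Against Ltbp1, the log2 ratio differed by 0.078 for Ltbp2, 0.075 for Ltbp3 and 0.15 for Ltbp4, none past the threshold (exact permutation adjusted p = 0.607, 0.408 and 0.317). Leaving out 1 library raises by construction the smallest p that the test allows. The 3 ratios with the smallest p then passed in 4 of the 9 cases, those without mutant 1, 4, 5 or 6, and Fbn2 over Fbn1 passed in 0 of the 9 (exact permutation). The log2 differences ran over these cases from -0.56 to -0.40 for the summed Ltbp genes, from -1.07 to -0.78 for Mfap2, from -1.19 to -0.78 for Adamts10 and from -0.16 to -0.12 for Fbn2 over Fbn1. Ltbp3 over Ltbp1 passed without mutant 4, at 0.12 (exact permutation adjusted p = 0.0357).

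**Figure D3:**
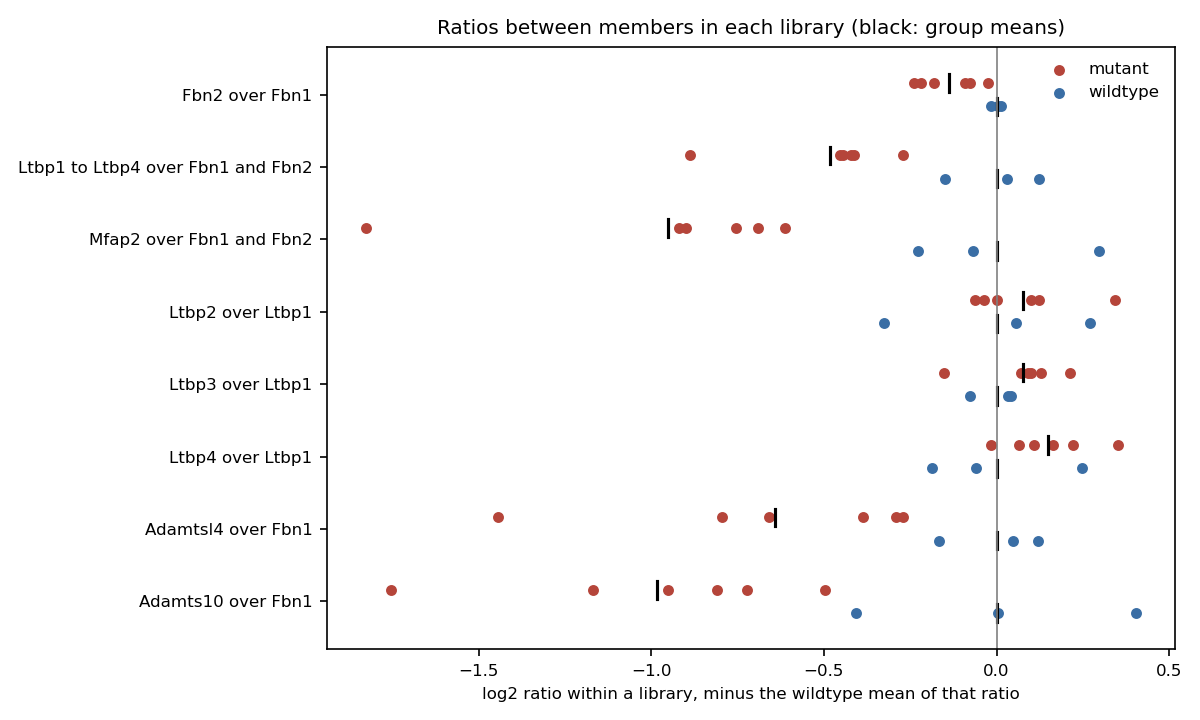
Log2 ratio between genes in each library, minus the wildtype mean of that ratio, so that wildtype libraries (blue) centre on 0 and mutant libraries (red, drawn above) lie left of 0 where the ratio is lower in the mutant. Black marks are group means. Mutant and wildtype points are apart for the ratios to Fbn1 and Fbn2 and overlap for the ratios to Ltbp1.

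The change of a gene moved with its length in these libraries. All tested genes with an annotated length were put into 10 groups of about equal size by total exon length. The group of the shortest genes, 66 to 1513 bases, had a median log2 fold change of -0.32 with 1.84% called higher, and the group of the longest, from 9700 bases upward, had a median of 0.25 with 29.0% called higher (edgeR). Mfap2, with 1211 bases, was among the shortest, and Fbn1, Fbn2 and Ltbp1, with 12128, 13215 and 10691 bases, were among the longest. The slope of log2 CPM, relative to the mean of all libraries, on log10 of exon length was -0.0030 to 0.505 in mutant and -0.439 to -0.111 in wildtype libraries, with mutant 4 and wildtype 1 at the ends. With a smooth length trend removed from each library, Fbn1 kept a log2 fold change of 0.65 (SE 0.103, edgeR adjusted p = 0.000956) and Fbn2 0.49 (SE 0.0895, edgeR adjusted p = 0.00203). Ltbp3, at 0.14 (edgeR adjusted p = 0.230), and Ltbp4, at 0.26 (edgeR adjusted p = 0.0638), lost their calls, and Mfap2 turned to 0.059. On that scale 2 of the 10 genes were called higher and 0 lower (edgeR), against 5.96% and 7.78% of all genes. With GC content removed as well, 3 were called higher, Ltbp4 among them at 0.27 (edgeR adjusted p = 0.0277), and 0 lower, against 6.27% and 8.54%. The lower ratios to the fibrillin genes kept their direction with length removed, at -0.41 for the summed Ltbp genes, -0.49 for Mfap2 and -0.91 for Adamts10 on the log2 scale (exact permutation adjusted p = 0.0317 for each).

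**Figure D4:**
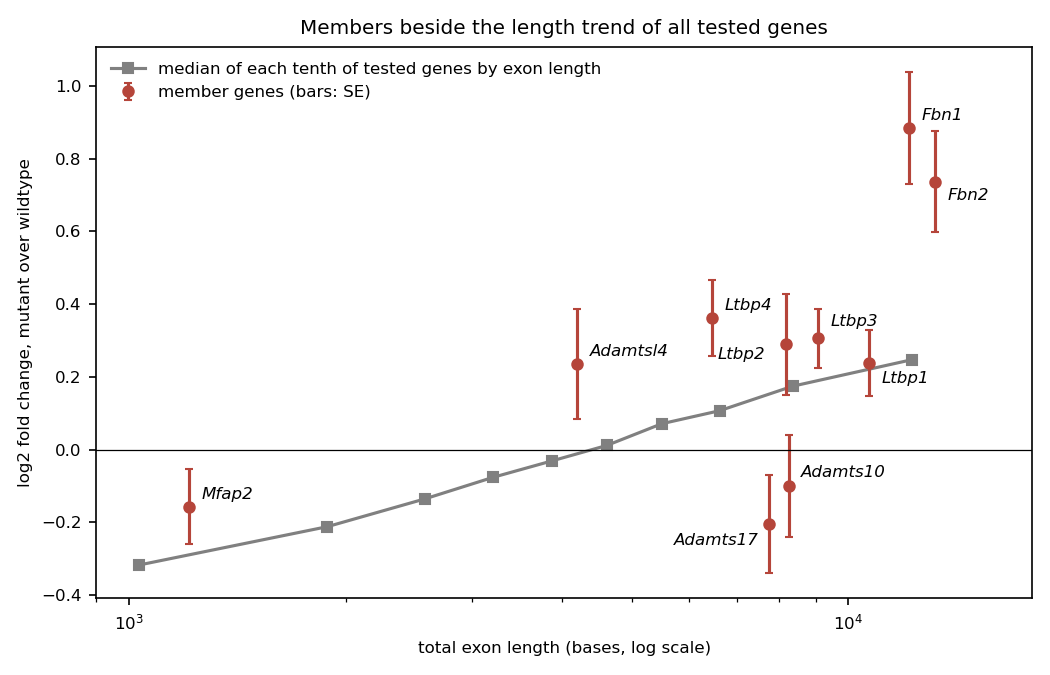
Log2 fold change of mutant over wildtype (vertical axis, bars are SE) against total exon length in bases (log axis) for the 10 genes in red, beside the median of each of the 10 length groups of all tested genes in grey. Fbn1 and Fbn2 lie above the grey line, Ltbp1 lies close to it, and Adamts10 and Adamts17 lie below it.

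**Figure D5:**
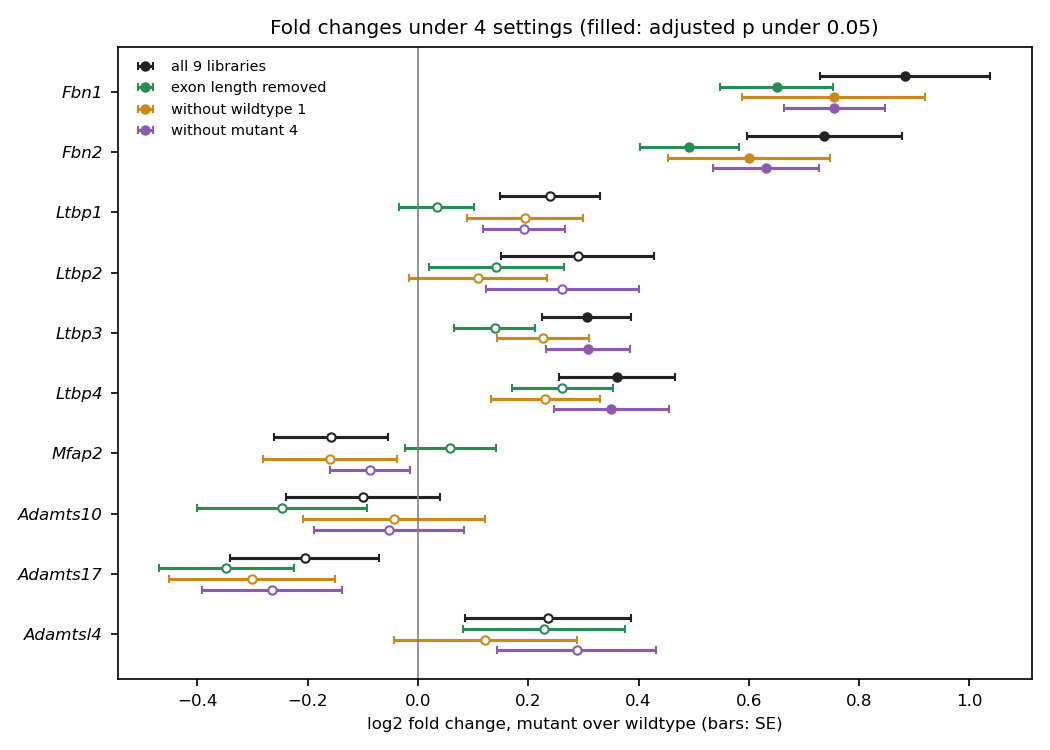
Log2 fold change of mutant over wildtype for each gene with bars of SE, from all 9 libraries, with exon length removed, and without wildtype 1 or mutant 4. Filled points have an edgeR adjusted p under 0.05. Fbn1 and Fbn2 are filled under all 4 settings shown, Ltbp3 and Ltbp4 are open with exon length removed and without wildtype 1, and the point of Mfap2 crosses 0 with exon length removed.

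The counts summed to 28440874 to 35306935 in mutant and 25995340 to 28356439 in wildtype libraries, so every mutant library was deeper than every wildtype library. The libraries also differed within groups. Gm42418, a gene that overlaps a ribosomal RNA repeat, took over 1% of the counts in mutants 1, 3, 4, 5 and 6 and in wildtype 1, and less in mutant 2, wildtype 2 and wildtype 3. On the side above 1% the log2 difference of mean CPM was 1.22 for Fbn1, 1.09 for Fbn2, 0.46 for Ltbp3 and 0.67 for Ltbp4, each against the single wildtype library there. On the side below, with the single mutant library, it was 0.60, 0.41, 0.30 and 0.21 for the same genes, so that the direction held on both sides, with no test. Fbn1 shares 2442 exon bases with Gm9913, Ltbp2 764 with D030025P21Rik and Fbn2 129 with Gm26507, all on the opposite strand. No source used here says whether reads were counted by strand. Gm9913 and D030025P21Rik had at most 15 and 14 counts per library, while Gm26507 averaged 6.92 CPM in mutant and 4.48 CPM in wildtype libraries, so reads of the shared bases are uncertain.

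Markers of the cell types in the tissue moved in part with the fibrillin genes. In bulk tissue, a change in the number of cells of a type and a change in RNA per cell cannot be told apart. Beside all marker counts that follow stand the shares of all tested genes, 9.7% called higher and 9.47% lower (edgeR). Vascular endothelial markers were called higher for 8 of 10 genes and lower for 0 (edgeR), and their summed level was 731 to 865 CPM in mutant and 528 to 623 CPM in wildtype libraries. Macrophage markers were higher for 3 of 10, with sums of 378 to 532 CPM in mutant and 264 to 277 CPM in wildtype libraries, and red cell markers were higher for 4 and lower for 1 of 8, with sums of 1798 to 8788 CPM in mutant and 536 to 941 CPM in wildtype libraries. Corneal stroma and fibroblast markers, the cells known to make much of the matrix, were higher for 1 and lower for 4 of 10, and their sums overlapped at 30368 to 52846 CPM in mutant and 40439 to 51346 CPM in wildtype libraries. Pericyte and smooth muscle markers split into 4 higher and 4 lower of 11, with sums of 1370 to 1454 CPM in mutant and 1465 to 1622 CPM in wildtype libraries. Of 10 ciliary and iris epithelial markers 0 were called in either direction (edgeR, 3 at an unadjusted p under 0.05), with sums of 613 to 658 CPM in mutant and 627 to 681 CPM in wildtype libraries. With exon length removed, 9 vascular, 6 macrophage and 6 red cell markers were called higher and 0 of these lower (edgeR). Stroma markers were then higher for 0 and lower for 3, pericyte and smooth muscle markers for 4 and 3, and ciliary and iris markers for 0 and 1. Of all tested genes 5.96% were higher and 7.78% lower on that scale.

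Of the lens markers Cryga and Lim2 were at 0 in every library, and the sums were 37.0 to 44.9 CPM in mutant and 49.97 to 57.1 CPM in wildtype libraries. Most of this sum was Bfsp2, a lens fibre filament gene and the 1 of 7 tested that was called lower, at 32.5 CPM in mutant and 42.5 CPM in wildtype libraries (edgeR adjusted p = 0.00958). The red cell marker called lower was Klf1, at 0.871 CPM in mutant and 1.92 CPM in wildtype libraries (edgeR adjusted p = 0.0228). Both are named after their values were seen. With exon length removed both lost the call (edgeR adjusted p = 0.172 for Bfsp2 and 0.0646 for Klf1). Surface epithelial markers were higher for 1 of 10, corneal endothelial markers for 2 of 6 and Schwann cell markers for 1 of 6, and pigment cell, retinal and skeletal muscle markers for 0 of 8, 5 and 9 tested (edgeR), while 1 of 7 cartilage markers was lower. Their summed levels were 8575 to 9870 CPM in mutant and 8673 to 9761 CPM in wildtype libraries for surface epithelium, 1818 to 2460 CPM in mutant and 1808 to 1963 CPM in wildtype libraries for corneal endothelium, and 14127 to 15801 CPM in mutant and 15839 to 16572 CPM in wildtype libraries for pigment cells. With exon length removed, corneal endothelial markers were higher for 1 of 6 and cartilage markers lower for 0 of 7 (edgeR). The part of any of these cell types in the levels of the 10 genes was not tested.

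Genes whose profile over the 9 libraries was most like that of Fbn1 were ranked by the root-mean-square difference of log2 CPM, each profile centred on its own mean, over 13230 genes. The 5 closest were Hspg2, which encodes perlecan, Fbn2, the fibronectin gene Fn1, Igf2r, which encodes a receptor that also carries lysosomal enzymes, and Lama4, a laminin chain gene. Their differences ran from 0.0885 to 0.101, and Fbn2 was the second closest at 0.0924. All 5 are long, with 9308 to 14307 exon bases, and all share the libraries with Fbn1. Igf2r had 134 ± 24.0 CPM in mutant and 78.8 ± 10.5 CPM in wildtype libraries, a fold of 1.70 (edgeR adjusted p = 0.00205). As the 5 were picked for likeness to Fbn1 in these same libraries, a similar fold and a low p follow from the choice. The closest Ltbp gene, Ltbp4, ranked 1033 and Mfap2 ranked 9638.

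Further genes of the microfibril and elastic fibre moved upward in part. Of 27 such genes outside the 10, 10 were called higher and 0 lower (edgeR), against 9.7% and 9.47% of all tested genes. At an unadjusted p under 0.05, 13 of the 27 were higher and 2 lower (edgeR), and the 27 had a median log2 fold change of 0.19. With exon length removed 8 of them were higher, against 5.96% of all tested genes. The 4 with the lowest p were Svep1, Hspg2, Vcan and Tgfbi. Svep1, a large adhesion protein gene, had 74.1 ± 12.1 CPM in mutant and 35.6 ± 8.50 CPM in wildtype libraries (2.08-fold, edgeR adjusted p = 0.000876). The versican gene Vcan, whose product binds fibrillin-1, had 84.2 ± 18.7 CPM in mutant and 46.3 ± 9.37 CPM in wildtype libraries (1.82-fold, edgeR adjusted p = 0.00360). Tgfbi, a cornea matrix protein gene, had 237 ± 21.6 CPM in mutant and 173 ± 16.9 CPM in wildtype libraries (1.37-fold, edgeR adjusted p = 0.00428), and these 4 genes kept their calls without any 1 library. The count was 4 without wildtype 1 and 7 without wildtype 3, where 303 and 849 of all tested genes were called higher, against 1535 with all 9 libraries. The same fall in all tested genes stands beside the counts of the lists below. Among the genes not called were the elastin gene Eln (edgeR adjusted p = 0.05004) and Mfap4. Mfap4 had 416 ± 40.2 CPM in mutant and 478 ± 16.9 CPM in wildtype libraries (edgeR adjusted p = 0.120), with the mutant range below. Eln and Mfap4 are named after their values were seen.

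Of 18 genes for the TGF-beta ligands and for their storage and release, 7 were called higher and 0 lower (edgeR), against 9.7% and 9.47% of all tested genes. The 18 had a median log2 fold change of 0.22. With exon length removed 6 of them were higher, against 5.96% of all tested genes. Those with the lowest p were Thbs1 and Itgav, whose products activate latent TGF-beta, the protease gene Htra1 and the ligand gene Tgfb2. Thbs1 had 269 ± 47.7 CPM in mutant and 121 ± 7.04 CPM in wildtype libraries (2.23-fold, edgeR adjusted p = 0.000145). Itgav had 184 ± 22.5 CPM in mutant and 129.7 ± 12.3 CPM in wildtype libraries (1.42-fold, edgeR adjusted p = 0.00428). Tgfb2, the main isoform of the aqueous humour, had 189 ± 8.71 CPM in mutant and 152 ± 12.6 CPM in wildtype libraries (1.25-fold, edgeR adjusted p = 0.00960), and Htra1 rose 1.26-fold (edgeR adjusted p = 0.00937). Without wildtype 1 the count was 2, with Tgfb2 at an adjusted p of 0.0874 and Htra1 at 0.0628 (edgeR), and without wildtype 3 it was 3, with Htra1 at 0.0570. Thbs1 and Itgav kept their call when any 1 library was left out. Itgav lost it with a replicate block and exon length removed (edgeR adjusted p = 0.0682) and without mutant 4 and wildtype 1 with exon length removed (edgeR adjusted p = 0.0633).

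Fibrillin also binds the prodomains of BMPs and related ligands. Of 12 listed genes for such ligands and an antagonist of them, 11 were found by symbol among the read counts and 9 were tested. Of the 9, 0 were called in either direction (edgeR, 1 at an unadjusted p under 0.05, 0 by DESeq2 and 0 by limma-voom), with a median log2 fold change of 0.0033. By edgeR 19.2% of all tested genes were called in either direction. Bmp10 was at 0 in every library and Gdf5 was below the filter. Bmp4 had 23.8 ± 2.40 CPM in mutant and 19.8 ± 1.90 CPM in wildtype libraries (edgeR adjusted p = 0.116). It passed with exon length removed, at a log2 fold change of 0.39 (edgeR adjusted p = 0.0217), and without mutant 4 (edgeR adjusted p = 0.0377). Bmp7, a ligand needed for eye development, had 85.0 ± 2.82 CPM in mutant and 92.1 ± 1.53 CPM in wildtype libraries (edgeR adjusted p = 0.257). Inhba and Mstn were at or below 2.23 CPM on average in both groups, and Inhba passed only without wildtype 3 (edgeR adjusted p = 0.0437).

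Of 13 genes for TGF-beta receptors and SMAD proteins, 5 were called higher and 0 lower (edgeR), against 9.7% and 9.47% of all tested genes. The 13 had a median log2 fold change of 0.25. The count was also 5 with exon length removed, against 5.96% of all tested genes. There Tgfbr2 lost its call (edgeR adjusted p = 0.0677) and Smad4 gained one (edgeR adjusted p = 0.0438). With all 9 libraries and no length removed, the 5 were the co-receptor genes Tgfbr3 (1.53-fold) and Eng (1.31-fold), the receptor gene Tgfbr2 (1.29-fold) and the repressor genes Skil (1.42-fold) and Ski (1.24-fold), with edgeR adjusted p of 0.00291, 0.0114, 0.0185, 0.00378 and 0.0224. Smad3, which carries the signal to the nucleus, had 124 ± 10.1 CPM in mutant and 104 ± 9.13 CPM in wildtype libraries and missed the threshold (edgeR adjusted p = 0.0532), and it is named after its value was seen. Without wildtype 1 or without wildtype 3 the count was 2, Eng, Tgfbr2 and Ski having lost their calls (edgeR adjusted p of 0.0646 to 0.168). Without wildtype 2 it was 7.

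The 12 genes for integrins and other receptors that bind fibrillin or its partners, some of which the storage and release genes include, had a median log2 fold change of 0.18. Of these, 5 were called higher and 0 lower (edgeR), against 9.7% and 9.47% of all tested genes. The 5 were Itgav, Itga8 (1.46-fold), Dag1 (1.24-fold), Itgb8 (1.57-fold) and Itga5 (1.26-fold), with edgeR adjusted p of 0.00428, 0.0121, 0.0174, 0.0282 and 0.0292. Itga5 pairs with Itgb1 as the fibronectin receptor, and Itgb1 itself had 664 ± 31.6 CPM in mutant and 638 ± 28.1 CPM in wildtype libraries (edgeR adjusted p = 0.652). With exon length removed 3 remained called, Itgav, Itga8 and Itga5, against 5.96% of all tested genes called higher. Without wildtype 1 the count was 1, without wildtype 3 it was 2 and without mutant 6 it was 3, so Itga8, Dag1, Itgb8 and Itga5 each lost the call without wildtype 1 (edgeR adjusted p = 0.104, 0.116, 0.170 and 0.135). Itga5 also lost it without mutant 3 (edgeR adjusted p = 0.0642).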

How the data were processed

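RNA of anterior segments from 6 mutant and 3 wildtype pools was sequenced, with groups taken from the genotype named in sample titles. The authors deposited whole-number read counts for each Ensembl gene, without normalization. STAR 2.6.1, HTSeq 0.6.1, DESeq2 1.6.3 and GRCm38 (mm10) are listed, without roles, per the submitters' processing notes. No source used here gives the annotation release or the strand setting, and antisense or overlapping genes may share reads. Symbols, positions and exon lengths came from GENCODE M21, with a match for 34490 of 35275 rows. Rows lacking a symbol held 0.0587% to 0.0649% of counts in mutant and 0.0677% to 0.0690% in wildtype libraries. Libraries within a group differed beyond sampling noise (chi-square per degree of freedom of at least 14.7), so each was 1 replicate, and 0 columns were left unmapped.

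The test was edgeR 4.0.16 (R 4.3.3) on 9 libraries with TMM factors, the default filter by group, a robust quasi-likelihood fit on genotype, mutant over wildtype, and Benjamini-Hochberg adjustment at 0.05 over 15825 genes. CPM used TMM library sizes. Intervals of fold changes are 95% intervals from the fit. Log2 ratios within libraries used read counts not divided by exon length, a prior count of 2 and an exact permutation test adjusted over 8 ratios. Length and GC trends were removed as smooth offsets (mgcv 1.9.3, basis of 10). DESeq2 1.42.0 and limma 3.58.1 voom with quality weights served as alternatives. The scripts were tested on simulated counts.

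The 10 genes, 5 gene lists and 14 marker lists were chosen with earlier results of these data known. Named besides the 10 were up to 4 tested genes with the lowest p per list, every called gene where a list had 5 or fewer, and the 5 profiles closest to Fbn1 among genes of at least 1 CPM. Leaving out both libraries at the ends of the length trend, removing principal transcript length and refitting the 6 libraries numbered 1 to 3 were alternatives chosen after seeing the data, the others were planned.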

Additional observations from a re-analysis of the deposited data

Results flagged for a closer look

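Mutant 4 stood apart from the other 5 mutant libraries in 5 of 18 groups of values checked for a single distant library. Chance flags about 1 in 20 groups, but the 18 share genes and libraries, and the flagged ratios use the flagged genes. The 5 can therefore not be set against that rate. Fbn1 was at 299.7 CPM there, with the next mutant library at 198 CPM, and Fbn2 was at 502 CPM, with the next at 362 CPM. Mfap2 was at 379.6 CPM in mutant 4, with the next lowest mutant library at 494 CPM. The log2 ratio of the summed Ltbp genes to the summed fibrillin genes was 0.027 in mutant 4 against 0.46 in the next mutant library, and that of Mfap2 to the summed fibrillin genes was -1.08 against -0.17. Mutant 4 also had the steepest slope of log2 CPM on exon length, 0.505 in mutant 4, against 0.184 in mutant 6. Without mutant 4, the log2 fold change was 0.75 for Fbn1 (edgeR adjusted p = 0.000143), 0.63 for Fbn2 (edgeR adjusted p = 0.000758) and -0.087 for Mfap2, and the part of length in these distances was not tested.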

How the results depend on the processing

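Fbn1 and Fbn2 were called higher under every alternative run with a test for them. Scaling by RLE or upper quartile, DESeq2, a weaker or stricter filter, and leaving out Gm42418 and Lars2 changed no call of the 10 genes. The median log2 fold change of all genes was 0.00 with TMM, 0.00 with RLE and -0.03 with upper quartile scaling. Limma-voom called 2359 genes higher and 2328 lower and 1 of the 10 lower, with Ltbp1 at 0.23 and Adamts17 at -0.34 now past the threshold and Adamts10 turned to 0.0075. Here and below, single genes are given as log2 fold changes.

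With exon length removed, 943 of all genes were higher, 2 of the 10, 1 prodomain ligand and 3 of the RGD-binding receptors, with Ltbp3 at 0.14 and Ltbp4 at 0.26 no longer called and Mfap2 turned to 0.059. With GC removed too, 993 were higher, 1 prodomain ligand was higher and 1 receptor or SMAD gene lower, Ltbp3 was at 0.13 without a call and Mfap2 at 0.064. With principal transcript length removed, 681 of all genes were higher and 885 lower, and 2 of the 10 were higher and 1 lower. The lists then held 6 microfibril, 4 latency, 1 prodomain and 1 RGD-binding gene called higher, Ltbp3 was at 0.13 and Ltbp4 at 0.18 without a call, Adamts17 at -0.43 with one (edgeR adjusted p = 0.0299) and Mfap2 at 0.078. A threshold of 0.01 left 520 higher and 512 lower, 2 of the 10, and 5, 4, 2 and 1 of the microfibril, latency, receptor and RGD-binding genes.

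The replicate numbers 1 to 3 stand in both groups, and the labels do not say what they mean. The deviations of same-numbered libraries from their group means correlated at 0.0947, 0.0258 and -0.104. Not every library correlated best with its own number. With so few libraries, these correlations cannot decide whether same-numbered libraries were paired. With a replicate block on those 6 libraries, 787 of all genes were higher and 660 lower, 3 of the 10 were higher and 3 receptor genes, Ltbp4 was at 0.40 without a call (edgeR adjusted p = 0.0571) and Adamts10 at 0.049. The same 6 libraries with genotype alone gave 857 and 733, Ltbp4 at 0.38 without a call and Adamts10 at 0.053. The block with exon length removed gave 426 and 455, 2 of the 10, and 6 microfibril, 3 latency, 1 receptor and 0 RGD-binding genes, with Ltbp3 at 0.21 and Ltbp4 at 0.31 without a call and Mfap2 at 0.14.

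With the Gm42418 split as a covariate, 938 genes were higher and 939 lower, 3 RGD-binding genes were higher and Ltbp2 passed at 0.49 (edgeR adjusted p = 0.0473). Above 1% of counts on Gm42418 the log2 ratio differed by 0.39 for Ltbp2 over Ltbp1, 0.35 for Ltbp4 over Ltbp1 and -1.42 for Adamts10 over Fbn1. Below 1% it differed by -0.21 for the summed Ltbp genes and -0.47 for Mfap2 over the fibrillin genes, -0.029 for Ltbp4 over Ltbp1 and -0.25 for Adamtsl4 over Fbn1, with no test on either side.

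With mutant 4 and wildtype 1 both left out, 590 genes were higher and 446 lower, 2 of the 10, and 5 microfibril, 4 latency, 2 receptor and 1 RGD-binding genes. Ltbp3 was at 0.23 and Ltbp4 at 0.22 without a call and Adamts10 at 0.0041. The ratio differences were -0.13 for Fbn2 over Fbn1, -0.34 for the Ltbp genes, -0.63 for Mfap2 and -0.63 for Adamts10, none past the threshold with 7 libraries, and -0.070 for Ltbp2 over Ltbp1. With length removed as well, 286 were higher and 283 lower, 2 of the 10, and 3, 2, 1 and 0 of the same lists, with Ltbp3 at 0.12, Ltbp4 at 0.15, Ltbp2 at -0.020 and Mfap2 at 0.059.

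Leaving out 1 library gave 303 to 1688 genes higher and 235 to 1577 lower, the lowest without wildtype 1, and 2 to 5 of the 10 higher. The lists then held 4 to 11 microfibril genes higher and 0 to 1 lower, 2 to 8 latency, 0 to 1 prodomain, 2 to 7 receptor and 1 to 5 RGD-binding genes higher. Log2 fold changes ran from 0.19 to 0.29 for Ltbp1, 0.23 to 0.38 for Ltbp3 and 0.23 to 0.56 for Ltbp4. Ratio differences ran from -0.16 to -0.12 for Fbn2 over Fbn1, -0.56 to -0.40 for the Ltbp genes, -1.07 to -0.78 for Mfap2, -1.19 to -0.78 for Adamts10 over Fbn1, -0.085 (without wildtype 1) to 0.21 for Ltbp2 over Ltbp1 and 0.038 to 0.12 for Ltbp3 over Ltbp1. Of the named genes outside the 10, Tgfb2, Itgav, Skil, Eng, Tgfbr2, Ski, Itga8, Dag1, Itgb8 and Itga5 lost their calls both with the block and length removed and without the end libraries and length removed, and Svep1 in the second. Eng, Ski and Itgb8 lost them with the block alone, Eng, Tgfbr2, Ski, Itga8, Dag1, Itgb8 and Itga5 without the end libraries alone, Tgfb2, Ski, Itga8, Dag1, Itgb8 and Itga5 with principal transcript length removed, Tgfbr2, Dag1 and Itgb8 with exon length removed, Tgfbr2 and Itgb8 with GC removed too, Itgb8 and Itga5 with the split as a covariate, and Ski and Itgb8 in the 6 libraries with genotype alone. The cause of these shifts was not tested. Of the 10 genes, Adamts17 had 361 to 468 counts per library.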
